A study of Homo sapiens with 5 samples.

Results

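The 2 input RNA libraries of LTAD prostate cancer cells are described here, which are 2 of the 5 samples of the series. An input library is made from the RNA of a cell lysate before an antibody takes out part of it, so it shows what the cells and the lysis offered to the antibody. Both count columns with input in their name were taken, and nothing measured was used to choose them. The labels list 1 input from cells given the vehicle DMSO and 1 from cells given the small molecule No.10-3 at 5 µM. The column names do not tell which is which. The columns are therefore called input library 1 and input library 2, where only the second has a number in its name, and every direction is between columns, not between treatments. With 1 library per treatment there is no replicate, and no test between the inputs was made.

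The series asks by its title how a small molecule changes the binding of PSF, a nuclear RNA-binding protein whose gene is SFPQ, to RNA in prostate cancer. All 5 libraries come from LTAD cells in phenol-red-free RPMI1640 with charcoal/dextran treated FBS, which is low in steroids, and the other 3 hold RNA recovered with PSF by RNA immunoprecipitation (PSF-RIP, 1 with vehicle and 2 with No.10-3). All were built with a stranded Illumina kit. LTAD is 1 cell line, kept for long under androgen deprivation as a model of hormone-refractory disease. The labels do not say whether any libraries came from separate cultures.

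Most RNA of a cell does not code for nuclear proteins. RNA polymerase III makes short, abundant RNAs that work inside protein complexes: 7SK holds the elongation factor P-TEFb inactive, 7SL is the RNA of the signal recognition particle, and the RNase P and RNase MRP RNAs cut precursors of tRNA and rRNA. Mitochondria transcribe their own small genome into mRNAs of the respiratory chain. In luminal prostate cells, androgen, with the factors FOXA1 and HOXB13, drives secretory genes such as the kallikreins KLK2 and KLK3, the latter encoding prostate-specific antigen.

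Input library 1 held 4010376 counts over genes and input library 2 held 3083063, against 1519362 to 3368252 in the PSF-RIP libraries. A count above 0 was found for 14278 genes in input library 1 and for 13631 in input library 2. Nuclear protein-coding genes took 658990 and 491108 of these counts, which is less than the 1118807 to 2766570 in the PSF-RIP libraries. The inputs are thus shallow for mRNAs: the median count of the 11504 genes averaging at least 1 CPM (a gene's count scaled to one total for all libraries) was 29 in input library 1 and 20 in input library 2. A count of 0 allows up to 3 counts, which is 0.748 CPM in input library 1 and 0.973 CPM in input library 2. All intervals cover counting error only, since PCR reads without molecular identifiers are not independent molecules.

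A few short noncoding RNAs filled most of both inputs. The RNAs 7SK, 7SL, RNase P, RNase MRP, Y and vault, all made by RNA polymerase III, together took 51.8% of counts in input library 1 (95% Wilson interval 51.8 to 51.9%) and 55.1% in input library 2 (55.1 to 55.2%). In the 3 PSF-RIP libraries the same group took 2.63 to 7.82%. Mitochondrially encoded mRNAs took 26.2% and 24.4% of the input counts, against 6.89 to 12.1% in PSF-RIP. Nuclear protein-coding genes were left with 16.4% in input library 1 and 15.9% in input library 2, where they took 73.6 to 82.1% of PSF-RIP counts.

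**Figure D1:**
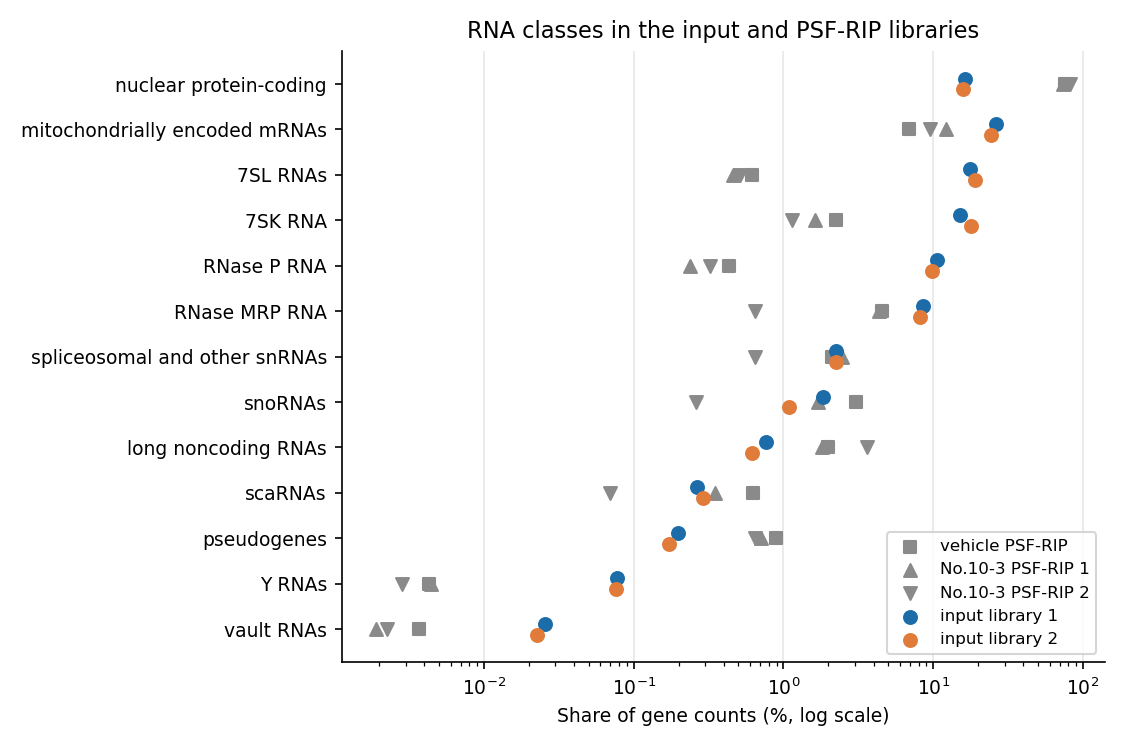
Share of gene counts (percent, log axis) held by 13 RNA classes in each of the 5 libraries, with 1 point per library. The blue and orange input points lie close together in most classes and farthest apart in snoRNAs, and in 7SK, 7SL, RNase P, RNase MRP, Y, vault and mitochondrially encoded RNAs both lie to the right of all 3 grey PSF-RIP points.

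Of 17 RNA classes with at least 10 counts in both inputs, 13 (76.5%) had input shares that did not overlap those of PSF-RIP, 8 (47.1%) higher and 5 (29.4%) lower in the inputs. Long noncoding RNAs were among the lower classes, with 0.766% and 0.620% in the inputs and 1.81 to 3.60% in PSF-RIP. The shares of a library sum to a fixed total, so large shares of some classes leave less for the others. The mean PSF-RIP share of long noncoding RNAs was 3.55 times their mean input share, and that of nuclear protein-coding genes 4.78 times. Relative to nuclear mRNAs, long noncoding RNAs were therefore not lower in the inputs by these means. Small nuclear RNAs of the spliceosome held 2.24% and 2.23% of input counts and overlapped the PSF-RIP range. The design of 2 against 3 libraries has 10 arrangements, so the exact two-sided permutation test cannot go below p = 0.2 for any class, or 0.262 after Benjamini-Hochberg adjustment over the 17 classes.

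By share of counts, RN7SK, the gene of 7SK, led both inputs, with 601585 counts (15%) in input library 1 and 549376 (17.8%) in input library 2. The next places were held by RN7SL1 (406832 and 345563 counts), RPPH1 (423357 and 304720), RMRP (340564 and 251711) and RN7SL2 (302584 and 244641). RN7SL1 and RN7SL2 are near-identical copies of 7SL, so the split between them is uncertain. These 5 genes took 51.7% of input library 1 and 55.0% of input library 2, while the top 5 genes of a PSF-RIP library took 8.78 to 13.1%. The rest of the 10 genes with the largest mean shares were mitochondrial: COX1, COX3, CYTB, ND4 and ND5. In input library 2 alone COX2 (60819 counts) lay above ND5 (58071).

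Per unit of length, levels are given as FPKM (counts scaled by gene length and by the library total, computed here from the deposited counts). On that scale RN7SK stood at 451829 in input library 1 and at 536722 in input library 2. RNU4-2, a gene of the U4 spliceosomal RNA, reached 69999 and 72351, and RNU5A-1, a U5 gene, 12809 and 12439. SNORD3A, a gene of the U3 snoRNA that guides early cleavage of the rRNA precursor, stood at 50548 FPKM in input library 1 and at 12955 in input library 2. The Y RNA RNY1, part of Ro particles, had 5058 and 5207. Small RNAs with several near-identical genes, as those of U2, U4, U5 and U3, have uncertain levels per gene.

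Other small RNAs were barely present. The 897 listed miRNA genes summed to 111 counts in input library 1 and 42 in input library 2, and 64 of them had any count. The mitochondrial rRNAs RNR1 and RNR2 together took 0.0637% of input library 1 and 0.0793% of input library 2, and both were below every mitochondrial mRNA per length. How rRNA was treated in library making is not given here.

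All 13 mitochondrial mRNAs were abundant. COX3, a core subunit of cytochrome c oxidase, was the highest per length, at 58449 FPKM in input library 1 and 53445 in input library 2, followed by COX1 with 43265 and 38797. CYTB, of complex III, had 38046 and 33902, and ND4, of complex I, had 25891 and 18273. The lowest was ND6, the complex I subunit transcribed from the light strand, with 677 and 945. The mitochondrial mRNAs thus spanned nearly 2 orders of magnitude within each input.

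Over all classes, the mitochondrial genome included, 10586 genes reached 1 CPM in both inputs, of which 9725 were nuclear protein-coding, 327 long noncoding and 143 snoRNA genes. Of the 18916 nuclear protein-coding genes listed, 6622 had no count in input library 1 and 6998 none in input library 2. The median of those above 0 was 1.91 FPKM in input library 1 and 1.76 in input library 2. Levels of at least 100 FPKM were reached by 73 genes in input library 1 and by 89 in input library 2. The 100 genes with the most counts took 18.4% and 19.1% of the nuclear protein-coding counts, so no single mRNA filled this fraction.

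Ferritin and the translation machinery led the nuclear mRNAs. FTH1, the ferritin heavy chain that stores iron, was the highest, at 1867 FPKM in input library 1 and 2216 in input library 2. TPT1, a translationally controlled growth protein, had 1230 and 1437, and FTL, the ferritin light chain, had 940 and 955. The other 12 of the top 15 were mRNAs of ribosomal proteins, from RPL37A (1081 and 1046) to RPL35A (548 and 566). The 86 mRNAs of cytosolic ribosomal proteins took 1.54% of counts in input library 1 and 1.53% in input library 2. Processed pseudogenes share sequence with many of these mRNAs, so their single levels carry that uncertainty.

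The long noncoding RNAs were led by MALAT1, a nuclear RNA of splicing speckles, with 379 FPKM in input library 1 and 256 in input library 2. NEAT1, a long noncoding RNA of the paraspeckles in which PSF resides, followed with 165 and 130. It is 1 entry of 3735 bases, so forms of different length are not told apart. NORAD, a cytoplasmic RNA that binds PUM proteins, had 110.7 and 116.3. SNHG19 (135 and 131), SNHG29 (133 and 129), DANCR (91.6 and 103), GAS5 (80.1 and 58) and SNHG6 (50.7 and 48.1) are hosts of snoRNAs, spliced RNAs whose introns hold them. Together with TP53TG1 (59.0 and 76.3) and LOC100506100 (51.1 and 38.9) they were the 10 highest. All 20 members of the list of snoRNA host RNAs reached 1 CPM in both inputs, beside 327 of all 1935 long noncoding RNAs. The proteins of the paraspeckle were present as mRNAs at moderate levels: SFPQ itself had 10.8 and 7.60 FPKM, its partner NONO 18.8 and 15.7, and PSPC1 1.87 and 1.49. All 18 genes of that list reached 1 CPM in both inputs, beside 9725 of all 18916 nuclear protein-coding genes.

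Of the marker lists, that of luminal prostate cells was the best represented. Of 22 luminal markers, 17 reached 1 CPM in both inputs, beside 9725 of all 18916 nuclear protein-coding genes. The median over all 22 was 10.0 FPKM in input library 1 and 7.83 in input library 2. FOXA1, a pioneer factor that opens chromatin, had 42.5 and 49.9 FPKM, rank 192 of 18873 nuclear protein-coding genes of at least 300 bases. The metalloreductase STEAP2 had 38.1 and 26.8, and the surface proteins STEAP1 and CD24 had 30.6 and 21.5, and 20.0 and 36.0. HOXB13, a prostate homeobox factor, had 11.2 and 14.5.

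The luminal keratins KRT8 (15 and 17 FPKM) and KRT18 (6.82 and 9.30) were present, while KRT19 stood at 4 and 3 counts. FOLH1, the gene of prostate-specific membrane antigen, had 5.29 and 3.21 FPKM. Several markers of secretory luminal cells were at or near 0: ACP3, prostatic acid phosphatase, had 3 and 4 counts, MSMB, a seminal plasma protein, had 4 and 0, and GATA3 and DPP4 had none in either input. In bulk RNA, fewer cells of a type and less RNA per cell cannot be told apart.

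Markers of other cell types were low or without counts. Of 12 basal markers 3 reached 1 CPM in both inputs, and the defining ones KRT5, KRT14, KRT15, TP63 and COL17A1 had no count. The highest basal marker was ITGA6, an integrin, at 1.5 and 1.4 FPKM. None of the 8 club cell, 6 smooth muscle, 7 endothelial, 9 T and B cell, 8 myeloid and 5 erythroid markers reached 1 CPM in both inputs, and these 6 lists summed to at most 1.5 CPM each. Every erythroid marker, the globins included, had no count.

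Neuroendocrine markers, which rise in a form of androgen-independent prostate cancer, reached 1 CPM in both inputs in 2 of 19 cases. These were ENO2, neuron-specific enolase, at 5.56 and 4.55 FPKM, and ONECUT2, a transcription factor, at 1.31 and 0.986. SYP, synaptophysin, had 4 and 9 counts, and 11 of the 19, CHGA, CHGB, INSM1, NEUROD1 and SOX2 among them, had none. Of 20 mesenchymal markers 5 reached 1 CPM in both inputs, led by FN1, fibronectin, at 10.1 and 3.72, SNAI2 at 6.29 and 5.40, and VIM, vimentin, at 3.27 and 3.64. The other 15 included 12 with no count, CDH2, ZEB2, DCN and LUM among them.

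**Figure D2:**
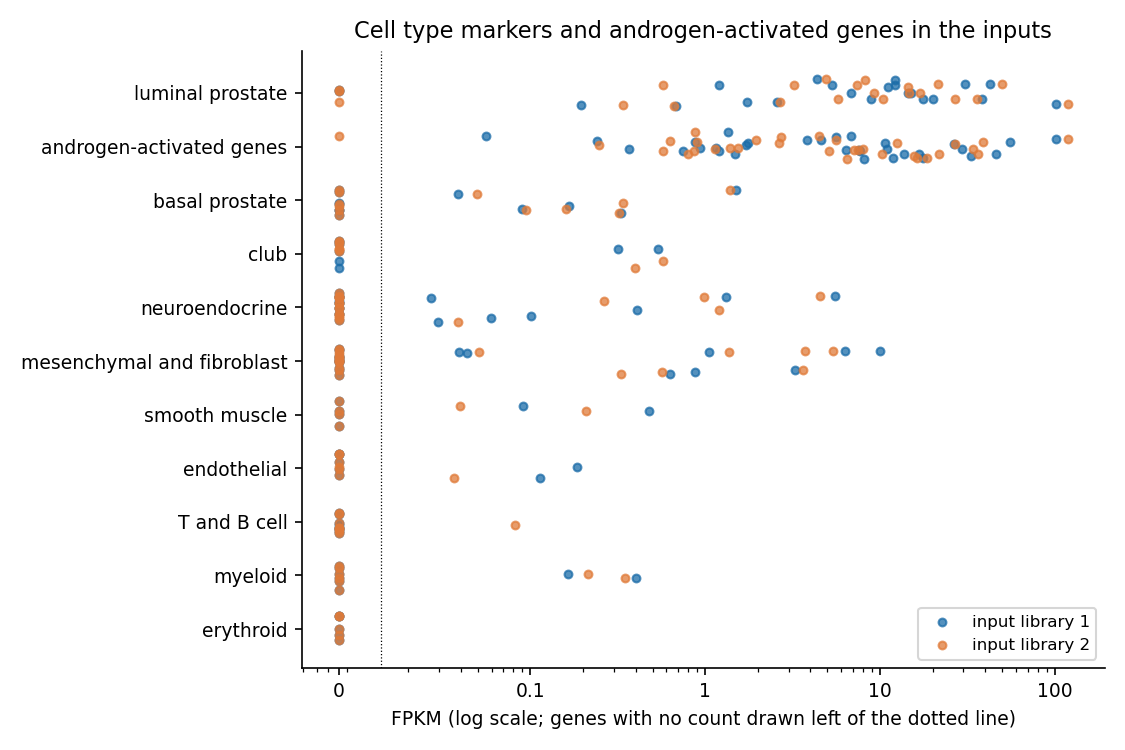
Level of each marker gene in FPKM (log axis) by list, blue for input library 1 and orange for input library 2. Points left of the dotted line had no count, and vertical scatter within a list carries no meaning. Luminal markers and androgen-activated genes spread mostly between about 1 and 100 FPKM, while lists of other cell types lie mostly at 0.

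The kallikrein genes are neighbours on chromosome 19 that androgen activates, and their levels differed. KLK3 had 12 counts in input library 1 and 6 in input library 2, which is 1.35 and 0.879 FPKM. KLK2 had 380 and 139 counts, 33.0 and 15.7 FPKM, so it was the higher of the pair in both inputs. KLK4 had 46.3 and 36.1 FPKM from 250 and 150 counts. KLK15 had 9 counts and 1 count. KLK2 and KLK3 are similar in sequence, and reads that map to both may have been dropped or assigned to either, so their split is uncertain.

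The promoters of KLK3 and KLK2 are shown because these genes, whose levels lay far apart, have similar promoters. Each line gives the 250 bases before the start of the gene from RefSeq on GRCh38.p14, plus strand, 5′ to 3′. The first is chr19:50854665-50854914 and the second chr19:50873189-50873438. Capitals mark matches to an androgen response element-like motif, GNACA and GTNCT 4 bases apart, and to a TATA-like motif, TTTATA.
KLK3: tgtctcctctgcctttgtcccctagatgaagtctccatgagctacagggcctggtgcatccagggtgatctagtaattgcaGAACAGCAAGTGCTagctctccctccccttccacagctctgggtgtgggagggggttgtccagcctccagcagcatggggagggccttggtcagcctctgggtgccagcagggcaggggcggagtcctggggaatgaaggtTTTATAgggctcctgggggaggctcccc
KLK2: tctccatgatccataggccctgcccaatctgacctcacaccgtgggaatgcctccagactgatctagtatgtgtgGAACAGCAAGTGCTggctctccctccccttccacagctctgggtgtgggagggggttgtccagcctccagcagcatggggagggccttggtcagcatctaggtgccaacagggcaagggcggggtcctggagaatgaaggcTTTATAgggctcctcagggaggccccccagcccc
The stretches were identical at 205 of 259 aligned columns, 18 of them gaps (79.2%). Both hold the element-like match GAACAGCAAGTGCT, 169 bases before the start in KLK3 and 175 in KLK2, and TTTATA at 28 and 34 bases before it. On both strands, the first motif occurs in 208 of 35116 RefSeq promoters of the same table (250 bases before to 50 after the start, 0.592%) and the second in 3763 (10.7%). A match describes letters and does not show that a factor was bound.

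Other androgen-activated genes were well represented in cells kept at low androgen. Of 32 androgen-activated genes 29 reached 1 CPM in both inputs, beside 9725 of all 18916 nuclear protein-coding genes. Besides KLK4 and KLK2, high levels were found for ACSL3, a fatty acid activating enzyme, at 29.4 and 33.9 FPKM, and SLC45A3, prostein, at 26.6 and 26.9. FKBP5, a chaperone used as a readout of steroid receptor activity, had 10.7 and 12.6, and TMPRSS2, a serine protease, had 3.83 and 1.95. The exceptions below 1 CPM in at least 1 input were KLK15, PLA2G2A and STEAP4. No androgen-replete cells are among the samples, so these levels are not set against an induced state.

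Of 15 genes listed as repressed by androgen, 8 reached 1 CPM in both inputs and 4 had no count. ST7 led this list at 23.5 and 25.8 FPKM. UGT2B15, UGT2B17, UGT2B28 and UGT2B11, enzymes that attach glucuronic acid to steroids, lay between 0.816 and 4.33 FPKM, and they are near-identical to one another. Of 23 genes of androgen synthesis and breakdown, 10 reached 1 CPM in both inputs and 7 had no count in either. These 7 were CYP17A1, STAR, HSD3B1, HSD3B2, SRD5A2, HSD17B2 and SULT2A1. CYB5A, a cofactor of CYP17A1 with other partners too, was the highest of this list of 23 at 32.7 and 42.9. SRD5A1, a steroid reductase, had 5.62 and 6.59, and AKR1C3, which reduces androstenedione to testosterone, had 1 and 2 counts.

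Of 13 nuclear receptors 7 reached 1 CPM in both inputs, while NR3C1, the glucocorticoid receptor, ESR1, PGR and ESRRG had no count. NR3C2, the mineralocorticoid receptor, had 1.40 and 0.825 FPKM. Of the ETS transcription factors, a family often rearranged in prostate cancer, SPDEF had 14.5 and 14.7, ELK4 13.5 and 14.4, ELK1 10.3 and 9.67, and ETV1 8.23 and 7.06. ERG, ETV4 and FLI1 had no count. A transcript level does not show whether a functional protein was made.

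Among long noncoding RNAs described in prostate cancer, GAS5 was the highest, at the levels given above. PCAT6 had 10.5 and 9.78 FPKM and CTBP1-AS, which lies antisense to CTBP1, 0.898 and 1.59. The strand setting of the count is not given, so CTBP1-AS and its sense gene cannot be told apart with certainty. PCA3, PCGEM1, PCAT18, PCAT4 and PCAT19 had no count in either input.

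Levels of the same gene were close between the inputs for most genes. After TMM scaling, 1088 of 11504 genes (9.46%) differed at least 2-fold, 486 (4.22%) higher in input library 2 and 602 (5.23%) higher in input library 1. That split moved with the scaling, to 371 and 714 by total counts and to 332 and 784 without mitochondrial genes. The middle 50% of genes lay between log2 differences (input library 2 minus input library 1, prior count 2) of -0.38 and 0.36, and the median size of a difference was 0.36. Across these genes log2 CPM correlated with Pearson r = 0.929 and Spearman rho = 0.917, values that describe genes of 2 libraries and not replicates. By counting error alone, the 95% interval of the ratio left out equality for 1104 genes higher in input library 2 and 817 higher in input library 1. It left out a 2-fold ratio for 30 and 14 genes.

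The share of genes 2-fold apart depended on the counts behind them. It was 20.0% for genes with 7 to 17 counts in both inputs together and 3.15% for those with at least 151. The 0.59 standard deviation over all genes was 0.79 in the first of these bins and 0.42 in the last. Among well counted genes, large differences were therefore few.

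**Figure D3:**
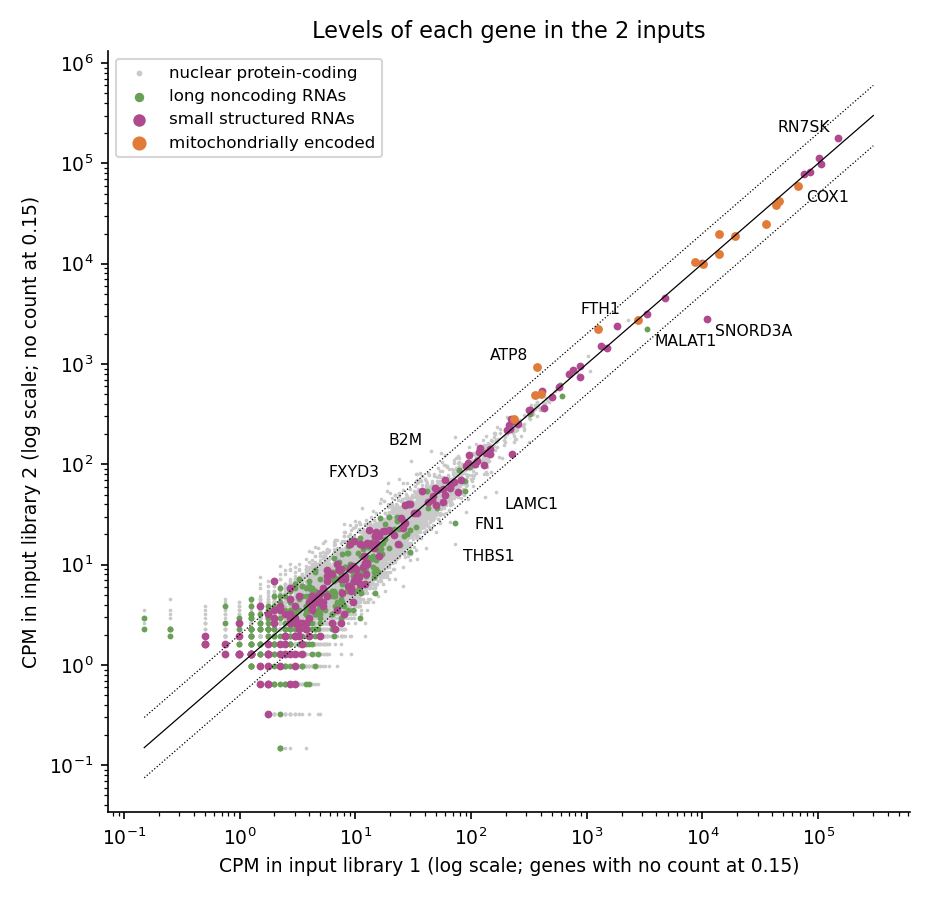
CPM of each gene in input library 1 (x axis) and input library 2 (y axis), both log axes, for the 11504 genes past the filter (main classes drawn). The solid line marks equal CPM and the dotted lines 2-fold differences before TMM scaling. Points narrow toward the upper right, and SNORD3A, with 43989 and 8667 counts, stands below the line of its abundance range.

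The inputs were nearer to each other than to any PSF-RIP library. Over 10074 nuclear protein-coding genes averaging at least 10 CPM (of nuclear protein-coding counts), 8.45% were at least 2-fold apart between the inputs. Input library 1 was 2-fold apart from the vehicle PSF-RIP library at 41.5% of these genes and from No.10-3 PSF-RIP 1 and 2 at 38.5% and 19.8%. For input library 2 the values were 47.5%, 41.4% and 27.7%. Pairs of PSF-RIP libraries were apart at 7.03% (vehicle and No.10-3 1), 16.2% (vehicle and No.10-3 2) and 13.8% (both No.10-3). With each library thinned to the nuclear protein-coding total of input library 2, the smallest, the inputs were apart at 8.56% and pairs of PSF-RIP libraries at 10.3%, 19% and 16.2%. In the same order as above, input library 1 was then apart from PSF-RIP at 40%, 37.7% and 19.8% and input library 2 at 45.7%, 39.8% and 25.8%. With these totals matched the inputs were the closest of the 10 pairs. As deposited, the vehicle PSF-RIP and No.10-3 PSF-RIP 1 libraries were closer.

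**Figure D4:**
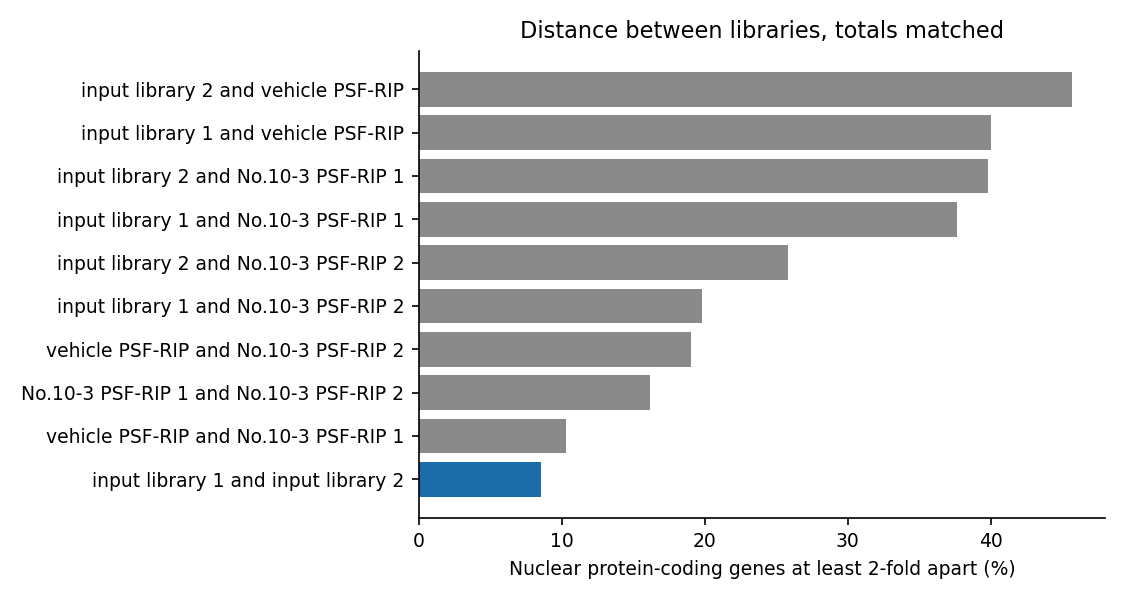
Percent of 10074 nuclear protein-coding genes at least 2-fold apart for each pair of libraries, after thinning to the same nuclear protein-coding total, 1 bar per pair. The blue bar of the inputs (8.56%) is the shortest, and the 6 bars that pair an input with a PSF-RIP library are the longest.

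Gene length moved with the difference between the inputs. In the shortest of 8 bins of nuclear protein-coding genes (351 to 1450 bases) the median log2 difference was 0.38, and in the longest (6388 to 111972 bases) it was -0.18. Spearman's rho between difference and length was -0.296 over 10437 genes. In the shortest bin 175 genes were at least 2-fold higher in input library 2 and 20 in input library 1, and in the longest bin 13 and 72. The part of length in the differences of single genes was not tested, but most groups below are given also after the running median over length was subtracted. That median was taken over nuclear protein-coding genes, the shortest of 351 bases. For all shorter genes its value at that end was subtracted, so their own length trend was not measured.

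**Figure D5:**
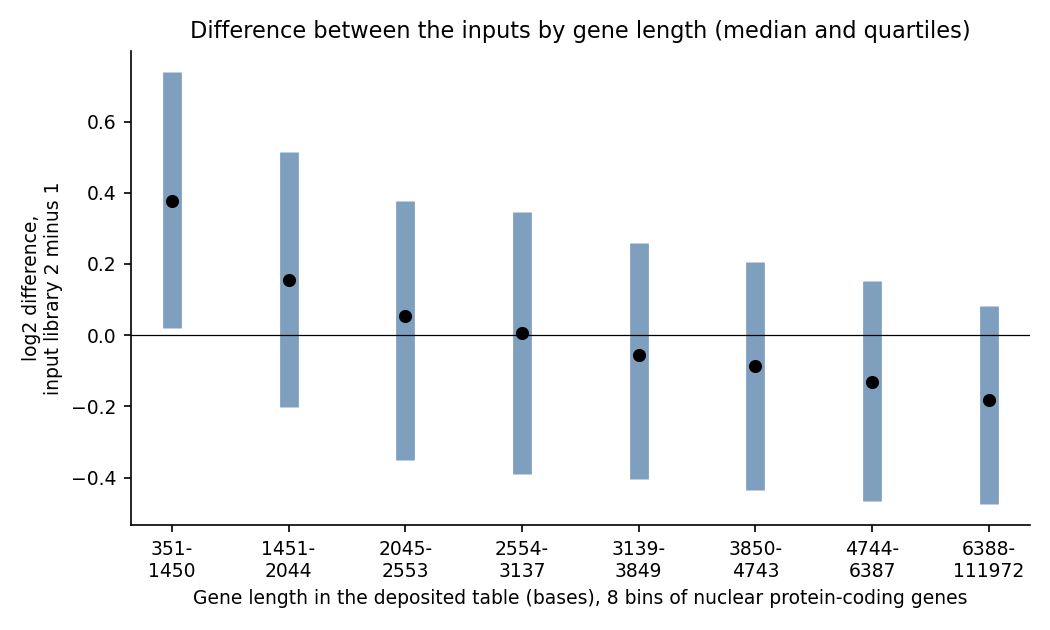
Log2 difference, input library 2 minus input library 1, in 8 bins of gene length with 1303 to 1306 nuclear protein-coding genes each. Points are medians and bars run from the lower to the upper quartile. The medians fall from 0.38 in the shortest bin to -0.18 in the longest.

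Nuclear mRNAs of the respiratory chain were higher in input library 2. This family of 79 genes, picked by gene symbol after the differences had been seen, had a median log2 difference of 0.77, where all 11504 genes had -0.00091. Of its members 73 were higher in input library 2, 30 of them at least 2-fold, and no member was 2-fold higher in input library 1. Over all genes 4.22% were 2-fold higher in input library 2, and 175 of 1306 in the shortest bin. At any size of difference, 993 of the 1306 genes in the shortest bin were higher in input library 2. With the length trend removed the median was 0.40. COX6C, a subunit of cytochrome c oxidase, had 95 counts in input library 1 and 218 in input library 2, a ratio of 3.21 (95% interval 2.51 to 4.13). COX7B, of the same complex, had 46 and 113 counts (3.44, 2.42 to 4.95). NDUFA4 went from 145 to 250 counts and NDUFB9, of complex I, from 75 to 166. The mitochondrially encoded partners of these proteins had a median of 0.10 with TMM, which became -0.05 when scaled without mitochondrial genes.

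Within the mitochondrial genome the inputs differed gene by gene. ATP8, a subunit of ATP synthase, had 1483 and 2898 counts, 2.73 times as high in input library 2 (2.57 to 2.91), and ND3, of complex I, had a log2 difference of 0.93. ND4 was on the other side with -0.40, and COX1, COX3, CYTB and ATP6 lay between -0.06 and -0.02. ATP8 overlaps ATP6 on the same transcript, and its 207 bases make it one of the shortest genes here. With the length trend removed its log2 difference was 0.91, but the trend was set by genes longer than ATP8.

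The 78 mitochondrial ribosomal protein mRNAs had a median of 0.42, and 0.09 without the length trend. The 79 cytosolic ribosomal protein mRNAs past the filter lay at 0.08 under TMM, at -0.06 when scaled without mitochondrial genes and at -0.37 without the length trend. So the direction of the cytosolic set depended on the scaling. Histone mRNAs, which are short and end in a stem-loop, had a median of 0.54 over 17 genes, 3 of them (H2AC6, H2AC20 and H2BC5) at least 2-fold higher in input library 2, and a median of -0.0025 without the length trend. The 3 of 17 stand beside 4.22% of all genes and 175 of 1306 in the shortest bin.

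Mitotic and replication genes were higher in input library 1. Of 30 cell cycle genes past the filter 25 were higher there, 6 of them at least 2-fold, with a median log2 difference of -0.52 (-0.55 without the length trend). Over all genes 5810 of 11504 were higher in input library 1, and 5.23% were 2-fold higher there. TOP2A, the topoisomerase of dividing cells, had 135 counts in input library 1 and 43 in input library 2. E2F1, a driver of S phase entry, had 26 and 7, CCNE2, cyclin E2, had 36 and 12, and CCNA2, cyclin A2, had 14 and 3. The replication factors MCM4 (23 and 7) and CDT1 (13 and 3) were the other members 2-fold apart. CDK4 (108 and 81), CCND1 (51 and 39) and PCNA (15 and 13) had log2 differences between 0.07 and 0.24 toward input library 2. Each of these is a low count except TOP2A and CDK4. In both directions, 20.0% of genes with 7 to 17 summed counts were 2-fold apart, the range of CCNA2 and CDT1. The share was 13.9% at 18 to 30 summed counts, where MCM4 lies, and 10.4% at 31 to 49, where E2F1 and CCNE2 lie. It was 3.15% at 151 or more, the range of TOP2A. Without a second library per treatment the spread between cultures is unknown.

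Secreted matrix genes were also higher in input library 1. This family of 14 genes was picked by symbol after the differences had been seen. It had a median of -0.81 (-0.69 without the length trend), and 12 members were higher in input library 1. Over all genes 5810 of 11504 were higher in input library 1, and 5.23% were at least 2-fold higher there. In the longest length bin 72 of 1305 were 2-fold higher there. THBS1, thrombospondin, had 291 counts in input library 1 and 49 in input library 2, a ratio of 4.24 (3.13 to 5.87). LAMC1, a laminin chain, had 659 and 164 (2.87, 2.42 to 3.43), FN1 had 362 and 103, and LAMA5 73 and 17. COL27A1 was the fifth member 2-fold apart, at 7 counts and 1 count, but the interval of its ratio held equality (5.00, 0.643 to 226). It passed the filter only through input library 1 (1.75 CPM, against 0.324 in input library 2). In its range of 7 to 17 summed counts, 20.0% of genes were 2-fold apart in either direction. THBS3 (9 and 11 counts) and COL4A4 (6 and 5) had differences toward input library 2.

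Apart from these groups, single genes stood out by the bound of their ratio's interval nearest to 1. Highest in input library 2 were AAMDC with no count against 11 (at least 5.13-fold against a floor of 3 counts, a figure without the counting error of the 11, which puts the lower 95% bound at 3.51), DBI, an acyl-CoA binding protein, with 122 against 335 (3.84, 3.11 to 4.77), and FXYD3, a regulator of the sodium pump, with 77 against 201 (3.65, 2.79 to 4.81). B2M, the light chain of MHC class I, had 180 counts in input library 1 and 421 in input library 2 (3.27, 2.74 to 3.92), and SELENOP, a selenium carrier, 292 and 577 (2.76, 2.40 to 3.19). CCDC28B had 1 count and 14 (19.6, 2.98 to 828). LOC100289361, POLR3GL and CHST2 each had no count against 9 (at least 4.2-fold against the floor, lower 95% bound 2.76). ATP8, COX6C and COX7B complete these 12.

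On the side of input library 1 the gene with the bound farthest from 1 was SNORD3A, with 43989 and 8667 counts, a ratio of 3.63 (3.54 to 3.71). The snoRNA class held 1.83% of counts in input library 1 and 1.09% in input library 2. Without SNORD3A it held 0.728% and 0.807%, and the median log2 difference of its 159 genes past the filter was 0.02. Other listed U3 genes had few counts: SNORD3B-2 had 20 and 16, SNORD3D 16 and 6, and SNORD3C 11 and 2. Reads could be split among these copies in a way the sources do not state. Of 24 small structured RNAs in a list that includes SNORD3A, the other 23 were all higher in input library 2 under TMM, and none of these was 2-fold apart. Of all genes past the filter, 5694 of 11504 were higher in input library 2. The list median was 0.19 (0.05 when scaled without mitochondrial genes), and -0.35 without the length trend set by protein-coding genes. Whole classes past the filter were less uniform. In input library 2 and input library 1, 10 and 4 small nuclear RNA genes were higher, 21 and 2 scaRNAs, and 83 and 76 snoRNAs without SNORD3A.

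SLC7A11, the cystine transporter of the NRF2 response, had 526 and 145 counts, 2.59 times as high in input library 1 (2.15 to 3.14). NUP210, of the nuclear pore, had 103 and 19 (3.88, 2.36 to 6.70), and PPWD1 37 and 4 (6.61, 2.38 to 25.5). KIF24 (20 counts and 1), ACOX3 (19 and 1) and POLG2 (28 and 3) had ratios of 14.3 (2.29 to 592), 13.6 (2.16 to 564) and 6.67 (2.06 to 34.3). DNTTIP1 had 15 counts and none (at least 3.57-fold against the floor, lower 95% bound 2.56), and 1 gene without a symbol had 14 and none (at least 3.34-fold, lower bound 2.37). Of all 24 genes singled out by interval, 23 were still at least 2-fold apart once the length trend was removed, the exception being ATP8. ATP8, SNORD3A and the gene without a symbol are shorter than the genes that set the trend.

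The prostate programme differed little between the inputs. Of 18 luminal markers past the filter 10 were higher in input library 2 and 8 in input library 1, none 2-fold, with a median of 0.14. The 30 androgen-activated genes past the filter split 15 to 15, with a median of 0.04 under TMM that turned to -0.10 without mitochondrial genes. PTGER4, a prostaglandin receptor, had 5 and 12 counts, and KLK15 had 9 counts and 1. These were the only ones of the 30 at least 2-fold apart. KLK2 lay just short of it, at a log2 difference of -0.96. Among the 10 androgen-repressed genes past the filter BMF (40 and 8 counts), PRKCA (57 and 16) and MET (10 counts and 1) were at least 2-fold higher in input library 1. Of all genes 5.23% were so. In either direction, 20.0% of genes with 7 to 17 summed counts, the range of MET, were 2-fold apart. The share was 10.4% at 31 to 49, where BMF lies, and 5.64% at 50 to 81, where PRKCA lies. Of the 10, 6 were higher in input library 2, and the list median was 0.07.

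Hosts of snoRNAs leaned to input library 1, with 16 of 20 higher there and a median of -0.35, although none was 2-fold apart. Of all genes past the filter, 5810 of 11504 were higher in input library 1. MALAT1 had a log2 difference of -0.46 and NEAT1 of -0.24. Paraspeckle protein genes had a median of -0.18, with 14 of 18 higher in input library 1 and none 2-fold apart. SFPQ, with 133 and 72 counts, had -0.39. Under the 5 scalings run, the medians of the cell cycle, snoRNA host, paraspeckle protein, respiratory chain and matrix sets kept their sign. Scaling without mitochondrial genes shifted the median of all genes by -0.13.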

How the data were processed

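RNA of input and PSF-RIP libraries was sequenced, and the authors deposited 1 table with a whole-number read count per Entrez gene, gene length and FPKM. The submitters' processing notes name TopHat2 2.1.0, Bowtie2 2.2.6, Bowtie and hg19 without their roles. What counted the reads, with which annotation and strand setting, and how reads with several positions were treated is not stated in the sources at hand. The 2 count columns named input carry no treatment. The 2 columns taken as No.10-3 PSF-RIP are named for the compound alone and were assigned by elimination. The 5 FPKM columns were not used, and FPKM was computed from counts, length and totals.

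The table has 25702 genes, 1962 without a symbol, which were kept. RNA classes came from RefSeq biotypes (GRCh38.p14), matched on Entrez ID for 23692 genes. Of 609 listed symbols in 37 lists, 595 matched. Members and lists were chosen with earlier results of these data known.

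Genes averaging at least 1 CPM over the inputs were compared with TMM factors (edgeR 4.0.16, R 4.3.3) and a prior count of 2. Ratios have exact conditional binomial 95% intervals, and shares have Wilson intervals. No p-value compares the inputs. The calculation was tested on simulated counts. Alternatives were other scalings (total counts, DESeq2 1.42.0 size factors, upper quartile, without mitochondrial genes), filters, thresholds, prior counts, thinned counts and removal of the length trend. The text names the 15 highest protein-coding and 10 highest long noncoding RNAs by mean FPKM (at least 300 bases), the 10 largest shares, up to 6 members per list by mean FPKM, members 2-fold apart, and the 12 genes per direction with the interval bound farthest from 1. Other genes were named after their values were seen. Results for some of these genes are not reported here.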

Additional observations from a re-analysis of the deposited data

How the results depend on the processing

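The inputs are shallow for mRNAs and have 1 library per treatment, so intervals cover counting error only, differences of low genes rest on few counts, and no value separates treatment, culture or library. The labels give the inputs no replicate numbers. No paired analysis was possible because the inputs have no replicates. Removal of the length trend was chosen after seeing the data, except for the lists.

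Counted per length, nuclear protein-coding genes took 3.36% and 3.48% of the inputs, mitochondrially encoded genes 11.0% and 10.4%, and the 7SK, 7SL, RNase P, RNase MRP, Y and vault group 73.5% and 75.8%. Without mitochondrially encoded genes, nuclear protein-coding genes took 22.3% and 21.1% and that group 70.3% and 72.9%. Ranked by CPM in place of FPKM, 5 of the top 15 protein-coding and 5 of the top 10 long noncoding RNAs were shared with the lists given.

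The number of genes 2-fold apart fell from 1088 to 352 (183 higher in input library 2, 169 in input library 1) at a mean of at least 5 CPM and to 130 (76 and 54) at 10 CPM. With no filter beyond a count above 0, 921 genes were higher in input library 1. At 1.5-fold there were 3299 (1537 and 1762), and at 4-fold 40 (14 and 26). With the length trend removed, 310 were higher in input library 2.

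Scaling by total counts gave medians of -0.028 for basal markers, -0.15 for long noncoding RNAs, -0.10 for nuclear protein-coding genes and -0.025 for cytosolic ribosomal protein mRNAs. Upper quartile scaling gave -0.020 for nuclear protein-coding genes. Scaling without mitochondrial genes gave -0.055 for basal markers, -0.31 for neuroendocrine markers, -0.49 for snoRNA hosts, 0.049 for small structured RNAs, -0.17 for long noncoding RNAs, -0.13 for nuclear protein-coding genes, 0.092 for scaRNAs and -0.060 for cytosolic ribosomal protein mRNAs. At a mean of at least 5 CPM basal markers were at -0.024. Removing the length trend gave -0.65 for snoRNA hosts, -0.35 for small structured RNAs, -0.061 for mitochondrially encoded genes, -0.0025 for histones, -0.37 for cytosolic and 0.086 for mitochondrial ribosomal protein mRNAs, and 0.40 for respiratory chain mRNAs. The cause was not tested. Of 31 lists with at least 3 genes past the filter, the median of 10 changed sign under a scaling and of 15 under any alternative run.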

Other observations

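Several further pathways were well represented in the inputs, where 9725 of all 18916 nuclear protein-coding genes reached 1 CPM in both. All 24 core spliceosome genes and all 15 SR protein genes did so too, so this was not particular to the pathways below. Of 22 cholesterol synthesis genes 20 reached 1 CPM in both inputs, among them INSIG1, the brake on SREBP (11.6 FPKM in input library 1 and 15.1 in input library 2). All 11 fatty acid synthesis genes reached that level, with ACSL3, ELOVL5 (20.5 and 13.2) and SCD, the stearoyl-CoA desaturase (16.3 and 16.1), at the top. Of 16 unfolded protein and integrated stress response genes 15 did, led by CALR, calreticulin (76.9 and 74.9), and ATF4 (79.2 and 68.2). In that list 12 of 16 were higher in input library 1, beside 5810 of all 11504 genes past the filter. Its median log2 difference was -0.31, and CHAC1 was 2-fold apart.

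Of 15 immediate early genes 9 reached 1 CPM in both inputs, with a list median of 2.05 and 2.23 FPKM. JUN had 4.05 and 5.37 FPKM and ZFP36 3.43 and 3.72, while FOS had 1 and 0 counts and FOSB 2 and 0. Of 7 targets of the aryl hydrocarbon receptor 3 reached 1 CPM in both inputs, with NQO1 at 8.47 and 10.4 FPKM, TIPARP at 6.55 and 10.2, and CYP1A1 at 7 and 3 counts. The interferon genes ISG15 (6.36 and 10.7) and IFIT1 (7.5 and 4.36) differed in opposite directions, and IFITM1, with 3 and 9 counts, was the only one of the 8 past the filter 2-fold apart.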
